A study of Gallus gallus with 12 samples.

Results

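The large chromosomes of the chicken held 735 long stretches in which none of 6 liver libraries had a peak of methylation-enriched DNA. The peaks of all 6 lists on chromosomes 1 to 5 were merged where they overlapped or touched, which gave 39582 regions. Of the 39577 intervals between successive regions, those of at least 100000 bp were taken as members, 735 of 1051 such intervals on all chromosomes. The members were chosen by the peak positions of all 6 lists, so the number, the length and the emptiness of the stretches are given as a description, with no test.

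The libraries were made by methylated DNA immunoprecipitation sequencing (MeDIP-seq), in which an antibody against methylated cytosine pulls down DNA fragments before they are sequenced. Liver DNA came from chickens labelled resistant (3 libraries) or susceptible (3 libraries) to avian leukosis virus subgroup J, a retrovirus that causes tumours in chickens. The study set these groups side by side to examine their DNA methylation. Breed, age, sex and infection status of the birds are not stated, and nothing says outright that each library is a separate bird, so p-values measure the spread between these libraries.

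In vertebrates most DNA methylation sits on cytosines followed by guanine (CpG sites), and the recovery of a fragment by the antibody rises with the number of methylated cytosines it carries. DNA with few CpG sites can therefore be methylated and still give no peak. The chicken genome is divided into a few large macrochromosomes, of which chromosomes 1 to 5 are the largest autosomes, and many small microchromosomes that are rich in genes and CpG sites. A stretch without peaks is thus a place where no peak passed the authors' threshold in bulk liver DNA, and gaps in the genome assembly cannot be told apart from it. Positions are on the galGal4 build, counted from 1, and genes, CpG content and base sequence were not analysed here.

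The lists held 56120 to 64559 peaks in resistant and 55599 to 62534 in susceptible libraries, of which 21172 to 26200 and 21277 to 25396 lay on chromosomes 1 to 5. Sequencing depth is unknown. Resistant replicate 3 and susceptible replicate 3 stood apart from the other libraries on the sex chromosomes, with peaks over 65.3 and 68.1 kb per Mb of Z against 29.9 to 31.8 kb per Mb in the rest, and over 50.2 and 53.3 kb per Mb of W against 179 to 189. They also had the fewest peaks of their groups on chromosomes 1 to 5, at 21172 and 21277.

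Together the 735 stretches spanned 108.6 Mb, or 18.0% of the 604.3 Mb of chromosomes 1 to 5 that the lists cover. They were 1.86% of the intervals but 18.8% of the interval length. Their median length was 132132 bp, with quartiles at 113600 and 163971 bp, while the median of all intervals was 5037 bp. Most were only somewhat longer than the minimum, since 494 (67.2%) were under 150 kb, while 83 reached 200 kb, 13 reached 300 kb and 3 reached 500 kb. The shortest member, at 3:71968427-72068449, had 100023 bp, and the next were 1:37120983-37221261 (100279 bp) and 2:144774962-144875243 (100282 bp). Just outside the limit were 3:6350546-6450507 (99962 bp), 3:91014368-91114316 (99949 bp) and 3:30514486-30614387 (99902 bp). The members thus form the upper tail of a continuous range of intervals, with no break in length at the limit.

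Every macrochromosome carried such stretches, in unequal amounts. Chromosome 1 had 193 (9.88 per 10 Mb), chromosome 2 had 180 (12.1 per 10 Mb), chromosome 3 had 157 (14.2 per 10 Mb), chromosome 4 had 129 (14.3 per 10 Mb) and chromosome 5 had 76 (12.8 per 10 Mb). They took up 14.1% of chromosome 1, 16.5% of chromosome 2, 21.0% of chromosome 3, 22.7% of chromosome 4 and 21.5% of chromosome 5. Chromosome 5 also had the most merged regions per Mb, 77.0 against 58.5 to 67.5 on the others. It therefore combined a high density of peak regions with a large share of peak-free length, and its median interval was the shortest, at 3464 bp. Stretches of 200 kb or more made up 20.2% of the members on chromosome 4 and 21.1% on chromosome 5, against 5% to 9.33% on chromosomes 1 to 3.

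**Figure D1:**
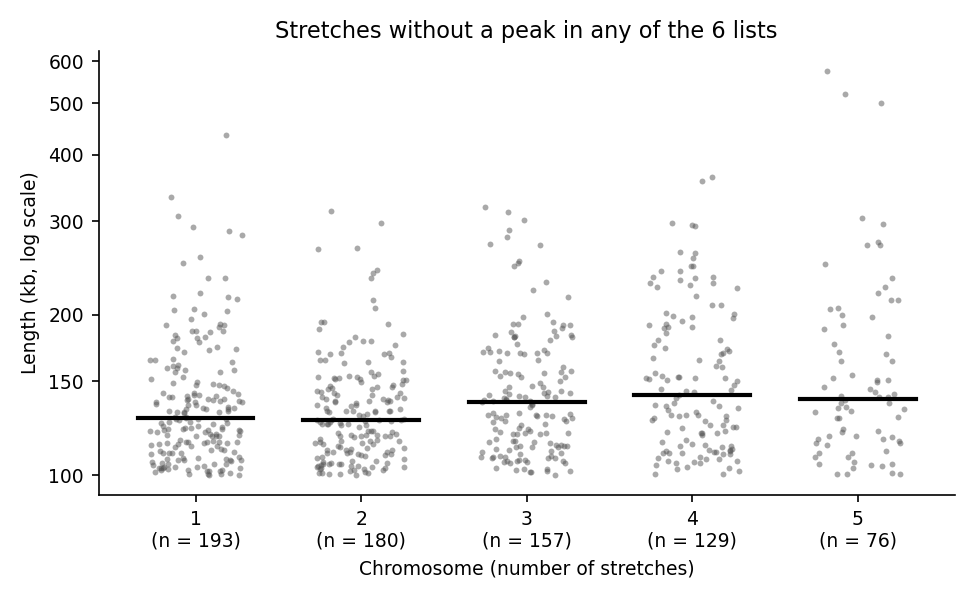
Length of each peak-free stretch in kb (log axis) by chromosome, with 1 point per stretch and a line at the median. Medians lie between 127 and 141 kb on all 5 chromosomes, and the 3 stretches over 500 kb are all on chromosome 5.

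The 3 longest stretches were all on chromosome 5. The longest, at 5:41665831-42240607, had 575 kb, followed by 5:18857679-19378098 with 520.4 kb and 5:46596943-47097660 with 501 kb. The next was the longest of chromosome 1, at 1:87036171-87472484 (436 kb). Chromosome 4 had the next pair, at 4:9905309-10268960 (364 kb) and 4:67030866-67387380 (357 kb). They were followed by 1:142190972-142524168 (333 kb) and by 3:42819966-43139527, the longest of chromosome 3 (319.6 kb). The 10 longest also included 2:25412115-25726227, the longest of chromosome 2 (314 kb), and 3:27382739-27695654 (313 kb).

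Most of these were wider in some of the libraries taken alone, because a single list can lack the peak that ends the shared stretch. At the longest stretch the distance between the flanking peaks of the same library was 606, 575 and 575 kb in resistant replicates 1 to 3, and 575, 575 and 746 kb in susceptible replicates 1 to 3. Its edges were thus nearly the same in 4 of 6 libraries, 2 of each group. At the second stretch the values were 521, 529 and 661 kb in resistant and 529, 576 and 602 kb in susceptible libraries. At the third they were 547, 547 and 501 kb in resistant and 501, 501 and 795 kb in susceptible libraries. The stretch at 4:9905309-10268960 varied most among the first 5, with 581, 724 and 914 kb in resistant and 415, 499 and 914 kb in susceptible libraries. At 1:87036171-87472484 they were 499.9, 608 and 608 kb in resistant and 525, 618 and 553 kb in susceptible libraries. The groups overlapped at every one of these 5 stretches. Over all members, the stretch of a library was at the median 1.15 (susceptible replicate 2) to 1.40 (resistant replicate 3) times as long as the shared stretch inside it.

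The peaks at the edges of the longest stretches ranged from strong peaks found everywhere to weak peaks of 1 library. The score used here is the authors' own, read as −10 times the log10 of the peak caller's p-value, with a minimum of 80. The region at the left edge of the longest stretch, 5:41665165-41665830, scored 468, 702 and 819.7 in the 3 resistant libraries and 993, 689 and 632 in the 3 susceptible ones, in replicate order. Within each list it stood between percentile 83.0 and percentile 91.0 of the peaks on chromosomes 1 to 5. On the right, 5:42240608-42241065 was found in 4 libraries, with scores of 198 and 254 in resistant replicates 2 and 3 and 142 and 127 in susceptible replicates 1 and 2.

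The second stretch ended on the right at 5:19378099-19379205, a region of 1107 bp with scores of 844, 1092 and 872 in resistant and 1049.9, 1012 and 976 in susceptible libraries. Beyond that region lay another member of 304 kb, so that this strong region stood between peak-free stretches of together 824 kb. On the left, 5:18857160-18857678 had a peak in resistant replicate 1 alone, with a score of 115. The third stretch lay between 5:46596445-46596942, found in resistant replicate 3 (129) and susceptible replicates 1 and 2 (204 and 103), and 5:47097661-47097982, found in every library. The region on the right scored 138, 221 and 261 in resistant and 198, 287 and 199.6 in susceptible libraries.

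The next stretches by length, on chromosomes 1 and 4, were bounded by weak peaks. At 1:87036171-87472484 the left region had scores of 103 and 134 in susceptible replicates 1 and 2, and the right region a score of 99.9 in resistant replicate 1. At 4:9905309-10268960 the left region had a score of 83.1 in resistant replicate 1 and the right region one of 82.1 in susceptible replicate 2, both close to the minimum score. With regions of at least 2 libraries as edges, this interval grew to 724 kb.

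Few stretches lay in the outermost part of the chromosomes. Chromosomes were measured up to their last peak, so distances to the far end are lower bounds. The closest member to an end, 2:147714816-147867300, lay 0.942 Mb from it, and the median distance to the nearer end was 30.8 Mb. That median alone shows no preference for the interior. Of the 604.3 Mb, 150.2 Mb lay 30 to 50 Mb from an end and 154.5 Mb lay further in. Stretches took up 0.583% of the length within 1 Mb of an end, 11.6% between 1 and 5 Mb and 17.2% between 5 and 10 Mb. The share was 20.004% between 10 and 20 Mb, 21.8% between 20 and 30 Mb, 19.4% between 30 and 50 Mb and 15.8% beyond 50 Mb. Merged regions ran the other way, with 213 per Mb within 1 Mb of an end and 52.7 per Mb between 20 and 30 Mb. Single ends differed from the pooled shares. The first 5 Mb held 7.23%, 5.06%, 2.31%, 0% and 18.5% on chromosomes 1 to 5 in order. Near the far ends, 1:190000001-195000000 held 14.0%, 3:105000001-110000000 held 6.05% and 4:85000001-90000000 held 26.9%. The distance classes do not hold the same chromosomes. Chromosome 5 (59.6 Mb) has no length beyond 30 Mb from an end, and chromosome 4 (90.2 Mb) none beyond 50 Mb. The lower shares beyond 30 Mb therefore cannot be told apart from differences between chromosomes.

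**Figure D2:**
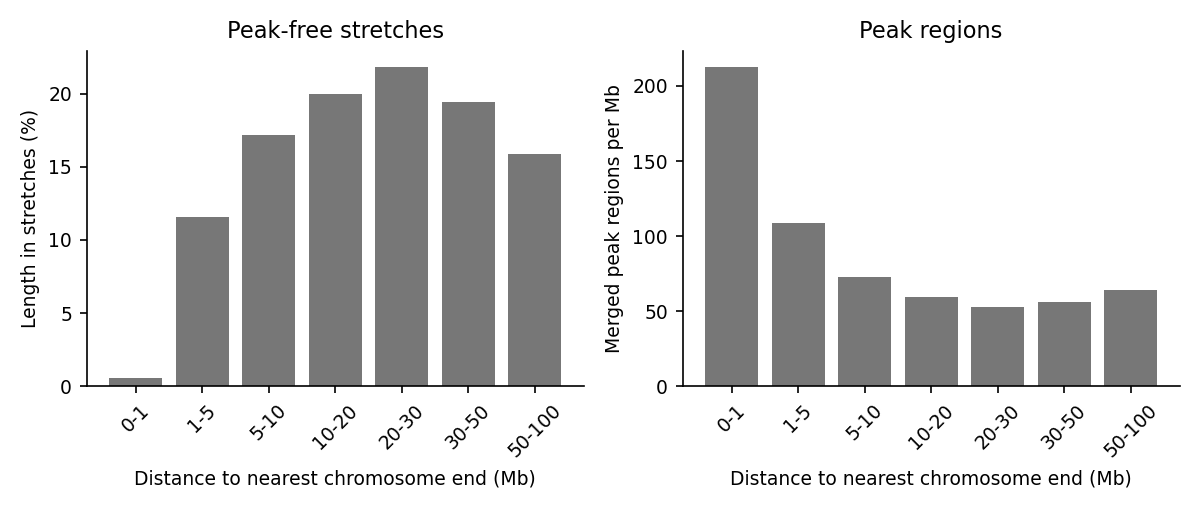
Left, percent of chromosome length lying in peak-free stretches; right, merged peak regions per Mb, both by distance to the nearer chromosome end in Mb, summed over chromosomes 1 to 5. The share in stretches is lowest within 1 Mb of an end (0.583%) and highest at 20 to 30 Mb (21.8%), and regions are densest within 1 Mb (213 per Mb).

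The distance of the first stretch from the end differed between chromosomes. At the start of the assembled sequence the first members lay at 1.20 Mb on chromosome 1, 1.54 Mb on chromosome 2, 2.26 Mb on chromosome 3, 5.49 Mb on chromosome 4 and 1.10 Mb on chromosome 5. At the other end the last members lay 4.23, 0.942, 2.32, 2.35 and 6.43 Mb away in the same order. The first 20 Mb of chromosome 4, which correspond to a microchromosome in other birds, held 19 stretches over 15.0% of its length, and the rest of chromosome 4 held 110 over 24.95%. Those 20 Mb were uneven, with shares of 0%, 39.5%, 15.1% and 5.37% in successive pieces of 5 Mb, and 12 of the stretches lay at 4:5000001-10000000.

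In 119 windows of 5 Mb, the share of length in stretches had a median of 17.8%, with quartiles at 9.55% and 25.7%. Only 2 windows had none, 4:1-5000000 with 1097 merged regions and 1:165000001-170000000 with 419, against a median of 309 regions per window. The share passed 40% in 5 windows. The highest was 51.0% at 5:30000001-35000000, where 15 stretches lay among 100 regions, the fewest of any window. It held 56, 52 and 46 peaks in resistant replicates 1 to 3 and 56, 61 and 53 in susceptible replicates 1 to 3. The others were 4:60000001-65000000 (47.8%), 4:40000001-45000000 (45.9%), 5:40000001-45000000 (41.6%) and 1:90000001-95000000 (40.9%). The last of these had 336 regions, more than the median window, so that a large peak-free share and many regions occurred in the same 5 Mb.

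Stretches tended to lie next to long intervals. Intervals adjoining a member had a median length of 25.4 kb, while those adjoining a shorter interval had a median of 4.87 kb. Of the 1470 neighbours of members, 11.4% were themselves members and 17.2% were under 5 kb, against 1.68% and 50.5% of the neighbours of shorter intervals. With members at most 50 kb apart joined, 260 of the 735 (35.4%) fell into 111 clusters of 2 or more, of which 32 held at least 3 members and 5 held at least 4.

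The largest cluster, at 5:32809470-33462541, held 5 members that filled 99.6% of its 653 kb. Only 4 regions of 2.34 kb in all lay inside it, 3 of them in every library and 1 in a single library. The libraries had 3, 3 and 3 peaks there in resistant and 3, 4 and 3 in susceptible replicates 1 to 3. Of the clusters with 4 members, the one with most peak-free length was 5:18857679-20140510, which includes the second-longest stretch and was 93.5% peak-free over 1283 kb. It held 3, 3 and 1 peaks in resistant and 2, 2 and 3 in susceptible libraries. The next, 4:46729973-47305439, was 93.1% peak-free over 575 kb, and its 9, 8 and 7 peaks in resistant and 8, 8 and 7 in susceptible libraries lay in 11 regions. Of these 11 regions 5 had a peak in every library and 3 in a single library, and of the 5 regions in the cluster before it 1 and 2 did, so that similar numbers of peaks were not always the same peaks.

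Peak coverage stayed low far beyond the edges. With the stretches and their border regions left out, peaks covered 29.96 ± 1.46 kb per Mb of chromosomes 1 to 5 (mean ± SD, n = 6 libraries). Within 2 kb of an edge coverage was 16.0 ± 1.45 kb per Mb, and between 30 and 50 kb it was 11.2 ± 0.816 kb per Mb, the lowest of 13 distance classes. It was 17.7 ± 0.929 kb per Mb between 100 and 150 kb, 27.3 ± 1.53 between 300 and 500 kb, and 46.7 ± 2.08 beyond 500 kb. All 6 libraries followed this course, and the class beyond 500 kb includes the chromosome ends. Coverage is read from the same peak positions that chose the stretches. Ground beyond 500 kb has by construction no interval of 100 kb or more within that distance. The course is thus a description, and the 6 libraries do not repeat it independently of the choice.

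**Figure D3:**
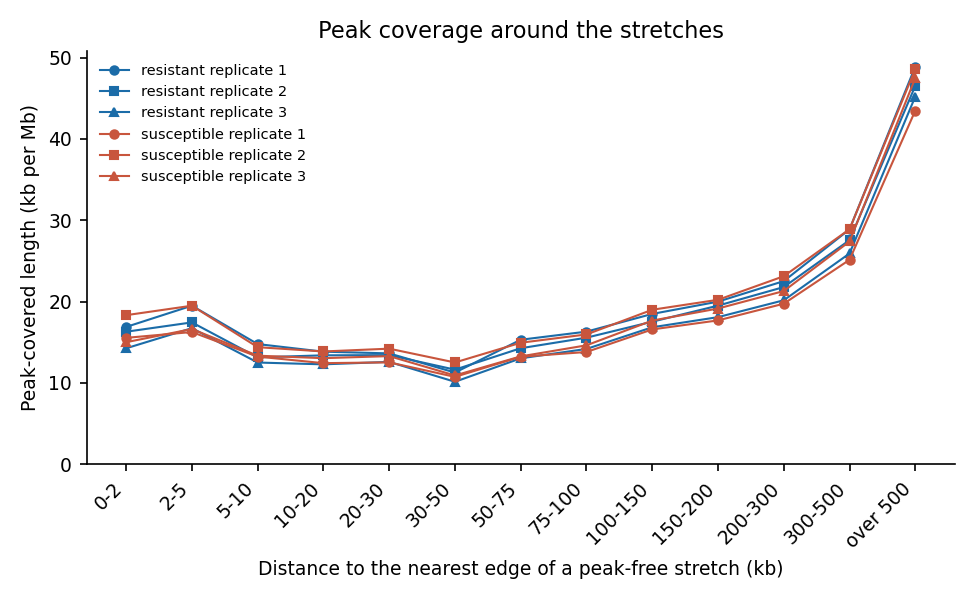
Peak-covered length in kb per Mb by distance in kb to the nearest edge of a peak-free stretch, 1 line per library (colour, group; marker, replicate), with stretches and border regions left out. Mean coverage is 11.2 kb per Mb at 30 to 50 kb and 46.7 kb per Mb beyond 500 kb, and the lines of both groups run together.

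The stretches were bounded by 1386 border regions, of which 84 had a stretch on both sides. Border regions were found in fewer libraries than other regions. A library had a peak in 51.7 ± 6.06% of border regions and in 56.8 ± 5.12% of the 38196 other regions (mean ± SD, n = 6). The difference was -5.11 ± 2.14 percentage points and negative in 6 of 6 libraries. Presence and width are read from the same peak positions that chose the stretches, so both are given without a p-value. Their tests enter only the adjustment of the score over 3 border measures. The difference in presence ranged from -7.45 points in resistant replicate 1 to -2.79 in susceptible replicate 2. Of the border regions 22.4% had a peak in all 6 libraries and 35.1% in 1 library, against 28.3% and 28.7% of the other regions.

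Peaks in border regions were also narrower and ranked lower. Their median width was 446 ± 32.2 bp, against 521 ± 35.6 bp for other peaks on the same chromosomes, a difference of -75.2 ± 5.59 bp. Their median score percentile within the list was 46.3 ± 0.805, against 50.1 ± 0.0296, a difference of -3.79 ± 0.831. Both were lower in 6 of 6 libraries. Apart from its minimum of 80, the score was not used to choose the stretches. It did follow the surroundings, with a mean percentile of 62.9 where the longer neighbouring interval was under 2 kb and 44.5 at 10 to 20 kb. Choosing regions beside a long interval is thus not independent of score. The difference in score had p = 0.031, the smallest that 6 libraries allow (exact two-sided sign-flip permutation test, adjusted p = 0.031 over 3 border measures). That adjustment counted presence and width, which are read from the peak positions that chose the stretches. It is therefore not taken as a passed test. The libraries share many of the regions compared, so the test speaks of repeated measurement of the same places and not of independent places. With 1 library left out no such test can go below 0.0625, and the 3 differences kept their sign in each case. With a limit of 200000 bp the differences in presence and score were -10.7 points and -9.34 percentiles (adjusted p = 0.0625 for the score, exact sign-flip permutation test), and with only peaks at or above the pooled median score that in width was -124 bp. The libraries were not alike in score at 200000 bp. The median percentile of border peaks was 52.9 in resistant replicate 3 and 33.1 to 41.6 in the other libraries. In the 4 libraries other than resistant replicate 3 and susceptible replicate 3 the differences at the main limit were -4.75 points, -75.4 bp and -4.42 percentiles.

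These differences depended on what the border regions were set against. Among regions whose longer neighbouring interval was under 2 kb, a library had a peak in 68.2 ± 4.06%, and the share was 61.1 ± 4.87% at 2 to 5 kb and 55.5 ± 5.31% at 5 to 10 kb. It was 52.7 ± 5.60% at 10 to 20 kb, 52.0 ± 5.51% at 20 to 50 kb, 51.5 ± 5.60% at 50 to 100 kb and 52.5 ± 6.34% at 100 to 200 kb. For the 163 regions next to a stretch of 200 kb or more it was 46.0 ± 4.51%, and 16.0% of them had a peak in all 6 libraries. The border regions thus stood apart from regions in dense surroundings, and much less from other regions in sparse surroundings.

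Against the 11796 other regions whose longer neighbouring interval was 20 to 100 kb, a comparison chosen after seeing the data, border regions differed in presence by -0.126 ± 1.57 points (lower in 3 of 6 libraries). The difference in width was -8.67 ± 3.68 bp (lower in 6 of 6), and that in score percentile turned to 1.64 ± 0.899 (higher in 6 of 6). For the score the exact sign-flip permutation p was 0.031 and the adjusted p 0.0469. That adjustment counted presence and width, which are read from the peak positions that chose the stretches, so it is not taken as a passed test. The lower rank of border peaks was therefore not seen against regions in sparse surroundings when the borders of all stretches were pooled. The median score percentile averaged 44.4 ± 0.80 in regions at 20 to 50 kb and 45.6 ± 0.93 at 50 to 100 kb. Among border regions it was 47.5 ± 1.13 at 100 to 200 kb but 40.7 ± 6.60 at 200 kb or more. In that last class it was 52.9 in resistant replicate 3 and 33.1 to 41.6 in the other libraries. The 2 border classes were not tested apart against sparse surroundings.

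**Figure D4:**
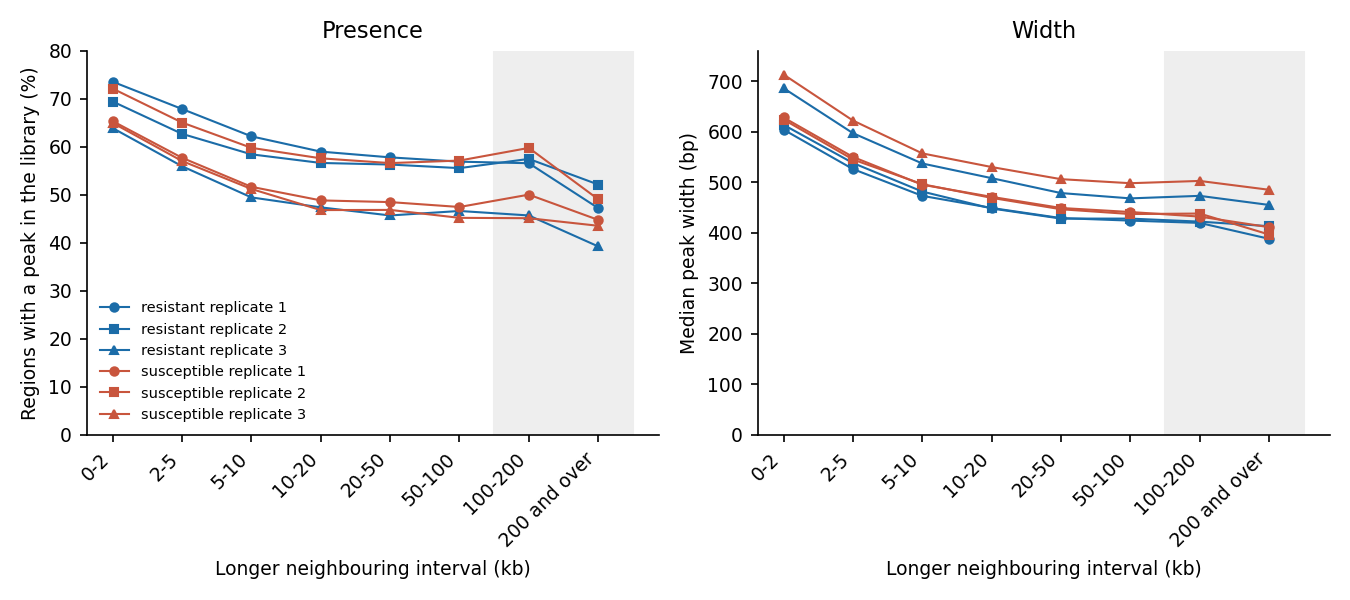
Left, percent of merged regions in which a library had a peak; right, median peak width in bp, both by the length of the longer neighbouring interval in kb, 1 line per library (colour, group; marker, replicate). Classes over the grey area are the border regions of the stretches. Presence averages 68.2% in the class under 2 kb and 51.5% to 52.7% in the classes from 10 to 200 kb.

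Few stretches had edges shared by all libraries. Both border regions had a peak in all 6 libraries at 42 of the 735 stretches (5.71%), and 1 of them did at another 254. At least 1 edge rested on a peak of a single library at 425 stretches (57.8%), and both edges did at 94 (12.8%). The same shares were not taken over all 39577 intervals, so these counts are not shown to be particular to the stretches. Taken singly, 22.4% of border regions and 28.3% of other regions had a peak in all 6 libraries, and 35.1% and 28.7% in 1 library. Of the 486 border regions with a peak in 1 library, 102, 107 and 50 belonged to resistant replicates 1 to 3 and 50, 131 and 46 to susceptible replicates 1 to 3. These were 21.0%, 22.0% and 10.3% in resistant and 10.3%, 27.0% and 9.47% in susceptible libraries. Other regions with a peak in 1 library split much alike, at 26.4%, 19.6% and 10.2% in resistant and 9.84%, 22.6% and 11.3% in susceptible libraries. The 3 libraries with the most single-library regions of both kinds, resistant replicates 1 and 2 and susceptible replicate 2, were also those with the most peaks on chromosomes 1 to 5. The part of list length in this was not tested.

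Regions with a stretch on both sides were isolated peaks in otherwise empty surroundings. Of these 84 regions, 27 (32.1%) had a peak in all 6 libraries and 33 (39.3%) in 1 library, and their median length was 453 bp. Both shares were higher than in the 1302 regions with a stretch on 1 side (21.8% and 34.8%) and in regions outside the borders (28.3% and 28.7%). They rest on only 84 regions, and these differences were not tested. A peak was present in 52.4%, 61.9% and 48.8% of the 84 regions in resistant replicates 1 to 3 and in 52.4%, 67.9% and 50% in susceptible replicates 1 to 3. The region 5:19378099-19379205 named above had the longest combined stretches on its sides, at 824 kb. It was followed by 5:41665165-41665830, at the left edge of the longest stretch, with 675 kb.

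Requiring more libraries at an edge joins intervals, so more length in stretches follows from the construction. The median stretch had 132 kb with edges in at least 1 library, 140 kb with at least 2 and 177 kb with all 6. When only regions with a peak in at least 2 libraries ended a stretch, there were 1100 stretches over 30.002% of the length, and with at least 3 libraries there were 1332 over 38.9%. With regions present in all 6 libraries there were 1762 stretches over 66.9% of the length. The longest was then 3:31499545-32872062, where 1373 kb passed without a region common to all libraries.

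Each library's own stretches were compared between resistant and susceptible libraries. An own stretch is an interval of at least 100 kb between successive peaks of the same list on chromosomes 1 to 5. Resistant replicates 1 to 3 had 1245, 1292 and 1404 of them, and susceptible replicates 1 to 3 had 1381, 1274 and 1430. The groups overlapped, and the highest value of each was that of replicate 3. The means were 1314 ± 81.7 in resistant and 1362 ± 79.8 in susceptible libraries, a difference of -48.0 (SD, n = 3 each, exact two-sided permutation test, p = 0.5, adjusted p = 0.933 over 4 group comparisons). With 3 libraries against 3 this test cannot go below 0.1.

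Own stretches summed to 214, 216 and 256 Mb in resistant and 245, 213 and 259 Mb in susceptible libraries. The means were 228 ± 23.8 and 239 ± 23.3 Mb, and the difference of -10.7 Mb lay within the spread between replicates (n = 3 each, exact permutation test, p = 0.7, adjusted p = 0.933). When every list was cut to its 55599 highest-scoring peaks, the length of the shortest, the differences changed sign, to 21.3 stretches and 5.20 Mb. That cut was made over all chromosomes, so it did not make peak numbers equal on chromosomes 1 to 5. In the 4 libraries without replicate 3 of either group the differences were -59.0 stretches and -14.6 Mb. Leaving out single libraries also moved them, with no change of sign. The difference in number was -93.2 without resistant replicate 3 and -91.8 without susceptible replicate 2, and -13.7 and -13.8 without resistant replicate 1 and susceptible replicate 3. That in length was -24.4 and -23.6 Mb without resistant replicate 3 and susceptible replicate 2, and -3.44, -4.29 and -0.878 Mb without resistant replicate 1, resistant replicate 2 and susceptible replicate 3. Own stretches were most numerous in the 3 libraries with the fewest peaks on chromosomes 1 to 5, resistant replicate 3 and susceptible replicates 1 and 3, and the part of list length in the group values was not tested beyond this.

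**Figure D5:**
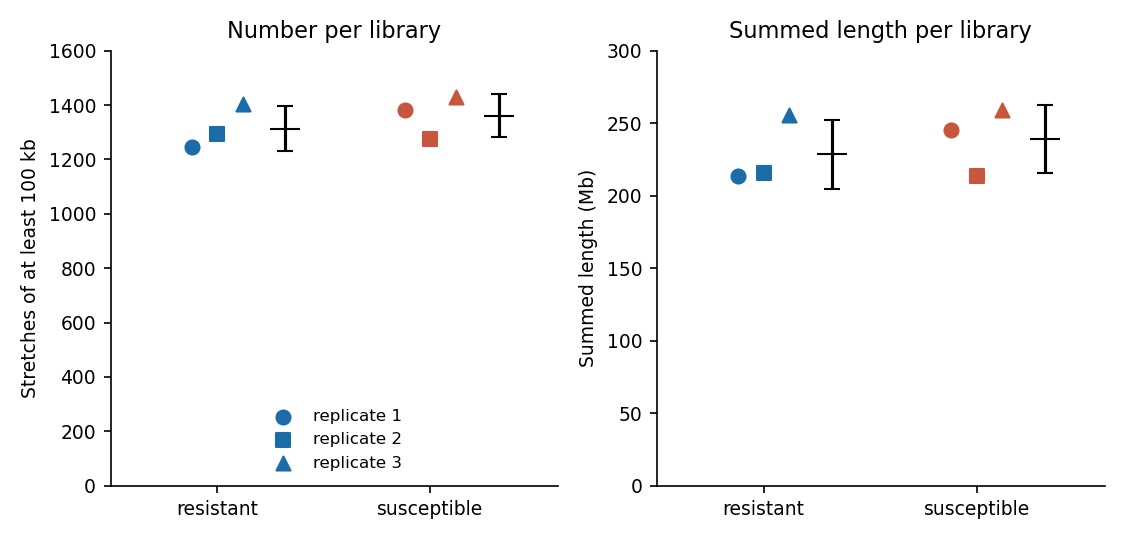
Number (left) and summed length in Mb (right) of the peak-free stretches of at least 100 kb in each library on chromosomes 1 to 5, by group, with the mean ± SD (n = 3) beside the points. The groups overlap in both, and replicate 3 is the highest in each group (1404 and 1430 stretches).

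By chromosome, own stretches took up 33.1 ± 4.18% of chromosome 1 in resistant and 34.8 ± 3.91% in susceptible libraries, the lowest shares. On chromosome 4, with the highest, they took up 42.7 ± 3.90% and 44.6 ± 3.44%. Resistant minus susceptible differences ran from -2.33 to -1.06 percentage points over the 5 chromosomes (n = 3 each, exact permutation tests, all adjusted p = 1). The direction was the same on every chromosome, and the chromosomes come from the same 6 libraries.

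The places of own stretches were shared in part. Of the 346 Mb that lay in an own stretch of any library, 124 Mb (35.8%) did so in all 6 and 53.1 Mb (15.3%) in only 1. The 108.6 Mb of shared stretches are fewer because a piece common to all libraries can be under 100 kb.

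The border regions were compared between groups as well. A peak was present in 55.5%, 56.9% and 44.9% of the border regions in resistant replicates 1 to 3 and in 49.4%, 58.5% and 44.9% in susceptible replicates 1 to 3. The means of 52.4 ± 6.51% and 51.0 ± 6.91% differed by 1.47 points (n = 3 each). Presence is read from the peak positions that chose the stretches, so no p-value is given for it. It counts only in the adjustment over 4 group comparisons. The difference in presence changed sign without resistant replicate 2 (-0.177) and without susceptible replicate 3 (-1.36). The median score percentile of border peaks was 46.0 ± 0.739 in resistant and 46.7 ± 0.830 in susceptible libraries, a difference of -0.717 (exact permutation test, n = 3 each, p = 0.3, adjusted p = 0.933). It changed sign under several alternatives.

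Few border regions followed the groups. Peaks of all 3 resistant and of 0 susceptible libraries marked 10 of the 1386 border regions (0.722%, 95% Clopper-Pearson interval 0.347 to 1.32%), against 0.639% of all 39582 merged regions on these chromosomes. The reverse was found in 8 (0.577%, 0.250 to 1.13%), against 0.341%. Both intervals include the background share. Among border regions with a peak in exactly 3 libraries, 18 of 146 (12.3%, 7.47 to 18.8%) followed the groups, and among other such regions 370 of 3907 (9.47%, 8.57 to 10.4%). The intervals cover counting error only.

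The resistant-only border region with the highest scores relative to its lists was 4:15979541-15980058, with 203, 179 and 189 in resistant replicates 1 to 3. It was followed by 2:19305052-19305452, with 125, 363 and 163, an isolated region with stretches of 163 and 100.5 kb on its sides, and by 2:8568524-8569284, with 359.8, 121 and 109.9. Among susceptible-only border regions the first was 1:106685437-106686222, with 139.8, 130.4 and 176 in susceptible replicates 1 to 3, whose next merged region lay 0.074 kb away. It was followed by 4:77158301-77158699, with 119.9, 140.5 and 142.5, and 4:58877741-58878143, with 104, 102 and 109. The lowest percentile of the 3 libraries passed 50 at the first resistant-only region alone (51.0), so that the others each had at least 1 peak in the lower-scoring part of its list.

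Long peak-free stretches were not confined to chromosomes 1 to 5. By the same rule, chromosomes 1 to 5 had 12.2 per 10 Mb, chromosomes 6 to 10 had 8.72, microchromosomes 11 to 28 had 3.90 and Z had 15.1. The share of length was 18.0%, 13.3%, 5.91% and 21.8% in the same order. Of the 18 microchromosomes 8 had no such stretch. In single libraries, own stretches took up 38.7 ± 3.62% of chromosomes 1 to 5, 29.6 ± 2.85% of chromosomes 6 to 10 and 14.4 ± 1.87% of microchromosomes (mean ± SD, n = 6). On Z they took up 33.2% in resistant replicate 3 and 34.7% in susceptible replicate 3, and 57.8% to 59.3% in the other 4. No test was made between the classes.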

How the data were processed

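Per the file and peak names, the authors called peaks with MACS in each MeDIP-seq library separately, with the input library that shares its sample number as control. The 6 input libraries enter only that way. Trimming with cutadapt and alignment with Bowtie2 to galGal4 are taken from the submitters' processing notes, which as used here give no versions, read filters or duplicate handling. The deposited value of a peak is a score from 80 to 3233.06, read from its values as −10 times the log10 of the caller's p-value, which puts the authors' threshold at 1e-08. Scores rise with depth, so they were ranked within each list. Read numbers are not part of the lists, which limits precision.

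Groups follow the source labels, and replicates are numbered in order of deposition, so numbers pair no samples. Peaks were merged and intervals measured in Python 3.11.15 with pandas 2.3.3 and numpy 2.4.6, checked on simulated lists. Group differences (resistant minus susceptible) had exact two-sided permutation tests over 20 label assignments, and the score of border regions against other regions an exact sign-flip test over 64, with Benjamini-Hochberg adjustment at a threshold of 0.05. The adjustment of the score counted presence and width of border regions, whose p-values are not given. That of the group comparisons counted border presence. Named regions were the 10 longest stretches, the longest of each chromosome, 3 intervals on each side of the length limit, the 3 largest clusters, the border regions of the 5 longest stretches and the 3 highest-ranked group-only border regions of each kind. Other named windows and isolated regions were chosen after their values were seen. Stretches, lists and tests were chosen with earlier results of these data known. Alternatives changed the length limit, the score minimum (170.03, the pooled median on chromosomes 1 to 5), list length (55599 peaks each over all chromosomes), the libraries needed at an edge, the cluster distance and the libraries used.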

Additional observations from a re-analysis of the deposited data

How the results depend on the processing

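All alternatives were planned except the comparison with regions in sparse surroundings, chosen after seeing the data. With a length limit of 50000 bp there were 2757 stretches over 247.5 Mb, and with 200000 bp 83 over 21.8 Mb. A score minimum at the pooled median gave 1563 over 286 Mb, edges in at least 2 libraries 181 Mb, and edges in all 6 libraries 1762 over 405 Mb. With members up to 200000 bp apart joined there were 169 clusters. These follow from the construction. Leaving out 1 library gave 773 to 809 stretches, and resistant minus susceptible differences of -93.2 to -13.7 own stretches and -24.4 to -0.878 Mb. No resistant minus susceptible difference could pass the threshold of 0.05, since the exact permutation test with 3 libraries against 3 cannot go below 0.1. These differences turned sign with equal list lengths (own stretches 21.3, their length 5.20 Mb, border presence -1.65 points, border score percentile 0.128). At the pooled median score that in own stretches turned as well (10). The border score percentile also turned with 50000 bp (0.155), 200000 bp (1.67) and edges in at least 2 libraries (0.513). With 1 library left out, border presence by group ranged from -1.36 to 5.85 points. The cause was not tested. Border regions against other regions ranged from -5.84 to -4.01 points in presence, -4.56 to -2.84 score percentiles and -80.8 to -73.4 bp with 1 library left out (for the score, exact test, adjusted p = 0.0625, the smallest possible). In the 4 libraries with low Z coverage they were -4.75, -4.42 and -75.4, and the exact test on 4 libraries cannot pass. With 200000 bp presence and score differed by -10.7 points and -9.34 percentiles (for the score, exact sign-flip permutation, adjusted p = 0.0625), and at the pooled median score width differed by -124 bp. The libraries were not alike in score at 200000 bp, with a median border percentile of 52.9 in resistant replicate 3 and 33.1 to 41.6 in the others. Against sparse surroundings presence differed by -0.126 points and score by 1.64 percentiles. Group-only border regions numbered 50 of 4883 (1.02%) with 50000 bp and 0 of 163 with 200000 bp, which allows up to 1.84%, beside 0.980% of all regions. With edges in at least 2 libraries they numbered 34 of 2013 (1.69%, all regions 1.38%). With 1 library left out they numbered 34 to 49 (2.26% to 3.37%, all regions 2.26% to 2.95%), and in 4 libraries 95 of 1540 (6.17%, all regions 5.73%), since fewer libraries loosen that definition. No paired analysis was possible because the replicate numbers come from the order of deposition. Since depth is unknown, no stretch is shown to lack methylation.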

Other observations

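The longest own stretch of a single library differed in place between libraries. In resistant replicates 1 to 3 it was 3:88087582-88974717 (887 kb), 4:9571924-10295762 (724 kb) and 5:19379174-20465264 (1086 kb). In susceptible replicates 1 to 3 it was 3:31722393-32571411 (849 kb), 4:66606965-67607423 (1000.5 kb) and 2:17989849-18995602 (1006 kb). Own stretches of at least 500 kb numbered 14, 12 and 21 in resistant and 21, 10 and 22 in susceptible libraries.

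The overlap of own stretches between a pair of libraries, as the length in both divided by the length in either, averaged 0.633 ± 0.00525 over the 3 pairs of resistant libraries and 0.654 ± 0.0235 over the 3 pairs of susceptible ones. Over the 9 pairs of a resistant with a susceptible library it averaged 0.648 ± 0.0202 (SD). The pairs share libraries, so no test was made.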
